A study of Mus musculus with 2 samples.

Results

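The insulin-like growth factor genes Igf1, Igf1r, Igfbp2, Igfbp3, Igfbp4, Igfbp5, Igfbp6 and Igfbp7 were followed across the cell classes of mouse lung in 2 single-cell libraries, labelled Normoxia and Hypoxia. They were chosen by gene symbol, 8 of the 31053 genes listed in the files, and 7 of them had at least 1 unique molecular identifier (UMI, standing for 1 captured transcript) in the retained cells. Igf1 and 5 of the binding proteins were lower in the Hypoxia library, and the receptor gene Igf1r was not shown to differ. Most of the Igf1, Igfbp3 and Igfbp6 UMIs of the Normoxia library lay in fibroblast-like cells or in a related cluster led by Hhip and Rgs5, both of which made up a smaller share of the Hypoxia library.

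Both libraries came from NG2tdT mice, a cross of NG2-CreERTM, a Jackson Laboratory strain, with the Ai14 tdTomato reporter. In these mice the promoter of Cspg4, which encodes the pericyte proteoglycan NG2, drives a Cre that tamoxifen switches on, so that NG2-expressing cells and their descendants carry tdTomato. All mice had 2 mg of tamoxifen per 30 g of body weight and 7 days of rest. The Hypoxia mice then breathed 10% oxygen for 21 days, and the Normoxia mice are labelled as untreated. The study's methods describe male mice from 2 to 4 months of age. The labels speak of 3 replicates in each group, and the study's text of 3 WT animals in hypoxia rather than of NG2tdT mice. Each group had 1 library here, in which cells carry no mark of the animal, so it was taken as 1 sample. No spread between animals could be measured and no test between the groups was made. Every difference below is one between these 2 libraries, and every interval is a 95% interval that covers counting error only.

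The filters retained 293 Normoxia cells with a median of 3135 UMIs and 453 Hypoxia cells with a median of 2818 UMIs. The labels describe a sort for tdTomato, but Cspg4 had a UMI in 1 Normoxia and 2 Hypoxia cells, and endothelial and immune cells were common, so the cells went against that label. The libraries shared 2 barcodes, of which 1 was retained in both. Classes were named from marker genes and each name means cells like that type. The endothelial-like class made up 31.4% of Normoxia and 41.7% of Hypoxia cells, and T or NK cell-like cells 4.44% and 16.8%. The fibroblast-like class held 39 and 21 cells, 13.3% against 4.64%. A cluster led by Hhip, Rgs5, Acta2, Tagln and Kcnj8 held 45 Normoxia and 6 Hypoxia cells, 15.4% against 1.32%. It stayed unnamed because 7 fibroblast, 7 myofibroblast, 4 pericyte and 4 smooth muscle markers all passed there, and it is called the Hhip and Rgs5 cluster. A cluster led by Vwf and Scgb1a1, with 21 and 23 cells, and one led by Mmrn1 and Prox1, with 4 and 6 cells, also had no name. All 12 endothelial markers passed in the Vwf cluster and 9 of 12 in the Mmrn1 and Prox1 cluster. The endothelial-like class thus does not hold all cells with endothelial markers.

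IGF1 is a secreted growth factor that binds IGF1R, a receptor tyrosine kinase that signals through the IRS adaptors, PI3 kinase and AKT. The binding proteins IGFBP1 to IGFBP6 hold IGF1 and IGF2 outside the cell, which prolongs their life and limits their access to the receptor, until proteases cleave them. IGFBP7 binds the growth factors only weakly and is known from vessel walls. In lung, fibroblasts and other stromal cells are a known source of IGF1.

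The bases upstream of the genes with the largest pooled difference, Igfbp3, and with the most UMIs, Igfbp7, are shown because both were read in a hypoxia experiment. The letters searched were ACGTG and GCGTG on both strands, the core that hypoxia-inducible factors bind, and capitals mark them. Each sequence is the 250 bases before the RefSeq start on GRCm38.p6, written 5′ to 3′ on the strand of the gene. The Igfbp3 window is chr11:7213924-7214173 on the minus strand and the Igfbp7 window chr5:77408046-77408295 on the minus strand.
Igfbp3: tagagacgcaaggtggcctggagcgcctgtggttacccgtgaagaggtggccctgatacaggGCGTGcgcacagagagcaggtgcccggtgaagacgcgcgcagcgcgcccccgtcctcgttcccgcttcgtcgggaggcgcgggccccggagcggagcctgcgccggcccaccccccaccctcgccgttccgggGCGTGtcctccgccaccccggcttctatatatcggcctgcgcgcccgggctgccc
Igfbp7: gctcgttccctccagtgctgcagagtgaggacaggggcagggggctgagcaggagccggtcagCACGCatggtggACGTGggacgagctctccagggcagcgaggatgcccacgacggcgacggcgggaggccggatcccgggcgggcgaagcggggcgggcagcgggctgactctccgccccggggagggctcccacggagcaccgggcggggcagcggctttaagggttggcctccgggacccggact
Both windows held 2 matches. Of 32851 mouse promoter windows of the same length, 6.58% held 3 or more, 16.7% held 2 or more and 38.6% at least 1. The matches started 188 and 55 bases before the start of Igfbp3 and 187 and 175 bases before that of Igfbp7. The windows of Igfbp4, Igfbp5 and Igfbp6 held none of these letters, that of Igf1 held 1 and that of Igf1r 3. Igfbp2, with 0 UMIs in the retained cells, has 2 RefSeq starts, with 4 matches before the first and 0 before the other. Of the 4, those at 142 and 141 bases overlap and are 1 site read on both strands. The base just before the start counts as 1. A match is a description of the letters only.

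On GRCm38, Igfbp2 (chr1:72824503-72852474, plus strand) and Igfbp5 (chr1:72857932-72874884, minus strand) are neighbours 5458 bases apart, and Igfbp3 (chr11:7206086-7213923, minus strand) lies 3540 bases from Igfbp1. Igf1 (chr10:87858265-87937042), Igf1r (chr7:67952827-68233668), Igfbp4 (chr11:99041244-99054392) and Igfbp6 (chr15:102144362-102149511) are on the plus strand. Igfbp7 (chr5:77349240-77408041, minus strand) overlaps Polr2b on the other strand, which had 52 UMIs in all.

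Levels were expressed as CPM, the UMIs of a gene per 1000000 UMIs of the summed cells. Over all retained cells Igf1 had 169 UMIs in Normoxia and 39 in Hypoxia, 152 against 24.5 CPM, a log2 ratio of Hypoxia over Normoxia of -2.63 (interval -3.17 to -2.12). Igfbp3 had 455 and 16 UMIs, 409 against 10.05 CPM, the largest difference among the members (log2 ratio -5.35, -6.17 to -4.63). Igfbp6 had 872 and 229 UMIs (log2 ratio -2.45, -2.66 to -2.23). These 3 genes had the lowest ratios among the members.

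Igfbp5 had 372 and 127 UMIs, with a log2 ratio of -2.07 (-2.37 to -1.77). Igfbp7, the member with the most UMIs, had 2588 and 1749 UMIs (log2 ratio -1.08, -1.17 to -0.99). Igfbp4 had 816 and 602 UMIs (log2 ratio -0.96, -1.11 to -0.80). Igf1r was the exception, with 48 and 81 UMIs and an interval of -0.29 to 0.78 around a log2 ratio of 0.24. Igfbp2 had 0 UMIs in both libraries, which allows a share of cells with a UMI of up to 1.02% in Normoxia and 0.662% in Hypoxia.

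Of the 7 members with at least 20 UMIs, 5 were lower by log2 1 or more and 0 were higher. Among all 9813 genes with as many UMIs, 8.13% were lower by this size and 6.21% were higher. The median log2 ratio was -2.07 over the members and 0.04 over all genes.

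The number of cells with a UMI moved in the same way. Igf1 was found in 58 of 293 Normoxia and 13 of 453 Hypoxia cells, Igfbp3 in 49 and 5, Igfbp5 in 53 and 16, Igfbp6 in 57 and 24, and Igfbp7 in 163 and 127. Since cells differed in depth, each was thinned to 1000 UMIs, which left out 6 Normoxia and 35 Hypoxia cells. The thinned share of Igfbp3 was 12.2% in Normoxia and 0.239% in Hypoxia, that of Igfbp6 13.9% and 3.35%, and that of Igfbp7 41.1% and 19.6%. For Igf1r it was 4.18% and 4.55%, where the counts without thinning were 37 and 64 cells. B cell-like cells and T or NK cell-like cells, which should lack stromal genes, served as the background from free RNA. Their median depth was 3866 and 3150.5 UMIs for T or NK cell-like and 4114 and 1862 UMIs for B cell-like cells. Their thinned share was at most 1 cell per library for each member other than Igfbp4, which had 1 of 44 and 13 of 129. Igfbp4 in Hypoxia stood at 232 CPM in T or NK cell-like and 38.3 CPM in B cell-like cells. For this gene the classes therefore gave no common background.

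The pooled ratio joins the level within a class and the share of the class. It was therefore computed again with each class given the same share of UMIs in both libraries. The log2 ratio of Igf1 went from -2.63 to -0.66, that of Igfbp6 from -2.45 to -0.93 and that of Igfbp5 from -2.07 to -1.06. Igfbp4 went to -0.11 and Igfbp7 to -0.72. Igfbp3 was still the lowest, at -3.45, and Igf1r was at 0.19. With equal shares 2 of the 7 members, Igfbp3 and Igfbp5, were lower by log2 1 or more, as were 4.61% of the 9813 genes. These values have no interval. For the Hhip and Rgs5 cluster the Hypoxia level in this calculation rested on 6 cells, with 0 Igfbp3 and 4 Igfbp5 UMIs. The choice of shares also moved the values. At the class shares of Hypoxia Igfbp3 (-1.99), Igfbp6 (-1.19) and Igfbp7 (-1.09) were past this size and Igfbp5 (-0.53) was not, and at those of Normoxia Igfbp4 (0.03) and Igf1r (-0.22) changed sign. A class with fewer cells in the lung and one captured less often cannot be told apart in these libraries.

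**Figure D1:**
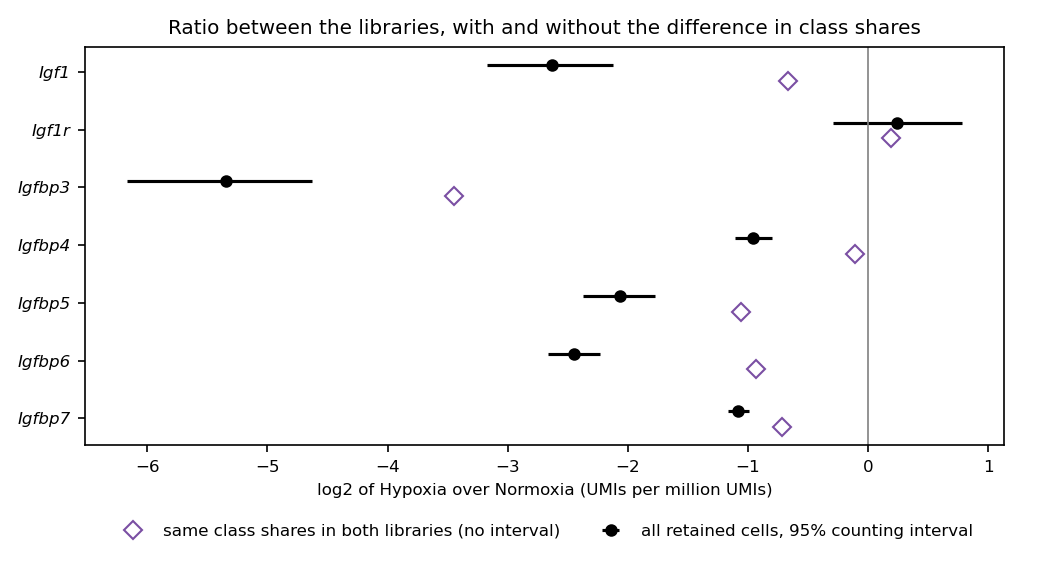
Log2 ratio of Hypoxia over Normoxia (horizontal axis) for 7 genes, over all retained cells (black points, bars are 95% counting intervals) and with equal class shares (open diamonds, no interval). For Igf1 the point at -2.63 and the diamond at -0.66 lie far apart, whereas both values of Igfbp3 lie below -3 and both of Igf1r near 0.

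Igf1, the ligand, was found mainly in fibroblast-like cells. That class held 70.4% of its UMIs in Normoxia and 84.6% in Hypoxia, and the Hhip and Rgs5 cluster 24.3% and 10.3%. In fibroblast-like cells Igf1 had 119 UMIs in Normoxia and 33 in Hypoxia, 537 against 339 CPM, and was found in 23 of 39 and 10 of 21 cells. The log2 ratio was -0.66 (-1.26 to -0.095). This ratio rested partly on 1 cell, since 18 of the 33 Hypoxia UMIs and 22 of the 119 Normoxia UMIs each lay in a single cell, and without these 2 cells it was -1.44 (-2.33 to -0.64). Among the fibroblast-like cells with a UMI of Pi16 or Dpt, 38 of 39 and 15 of 21 cells, the ratio was -0.35 (-0.96 to 0.21). Its interval held 0. With 38 of 39 Normoxia cells kept, this choice did not set apart a fibroblast subtype.

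In the Hhip and Rgs5 cluster 28 of 45 Normoxia cells had Igf1, with 41 UMIs and at most 3 in a cell. In Hypoxia 1 of 6 cells had it, with 4 UMIs. The levels there, 289 and 238 CPM, had intervals that overlapped. Endothelial-like cells had 0 and 1 UMIs in 92 and 189 cells. Macrophage or monocyte-like cells, which can make IGF1 in lung, had 2 UMIs in 28 Normoxia cells and 0 in 45 Hypoxia cells.

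Igf1r, the receptor, was spread more widely than its ligand. Endothelial-like cells held 31.2% of its UMIs in Normoxia and 54.3% in Hypoxia, with 15 UMIs in 11 of 92 cells and 44 UMIs in 35 of 189 cells. Their levels were 60.2 and 72.0 CPM, a log2 ratio of 0.26 (-0.61 to 1.21). In the Vwf cluster it had 7 and 16 UMIs (log2 ratio 0.69, -0.67 to 2.21). In fibroblast-like cells it had 11 and 3 UMIs, and in the Hhip and Rgs5 cluster 12 and 0. At this depth no difference could be seen in any of the 4. In Normoxia the order ran from the Hhip and Rgs5 cluster (84.5 CPM) over the Vwf cluster (73.8 CPM) and the endothelial-like class to the fibroblast-like class (49.6 CPM), and each neighbour's interval overlapped the next.

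In Hypoxia the class with the highest Igf1r level was the neutrophil-like one, with 352 CPM (161 to 668) from 9 UMIs in 8 of 28 cells. These cells were shallow, with a median of 690.5 UMIs, and the Normoxia library held 2 such cells with 0 UMIs of the gene. The interval overlapped that of the Vwf cluster, which came next with 119 CPM.

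**Figure D2:**
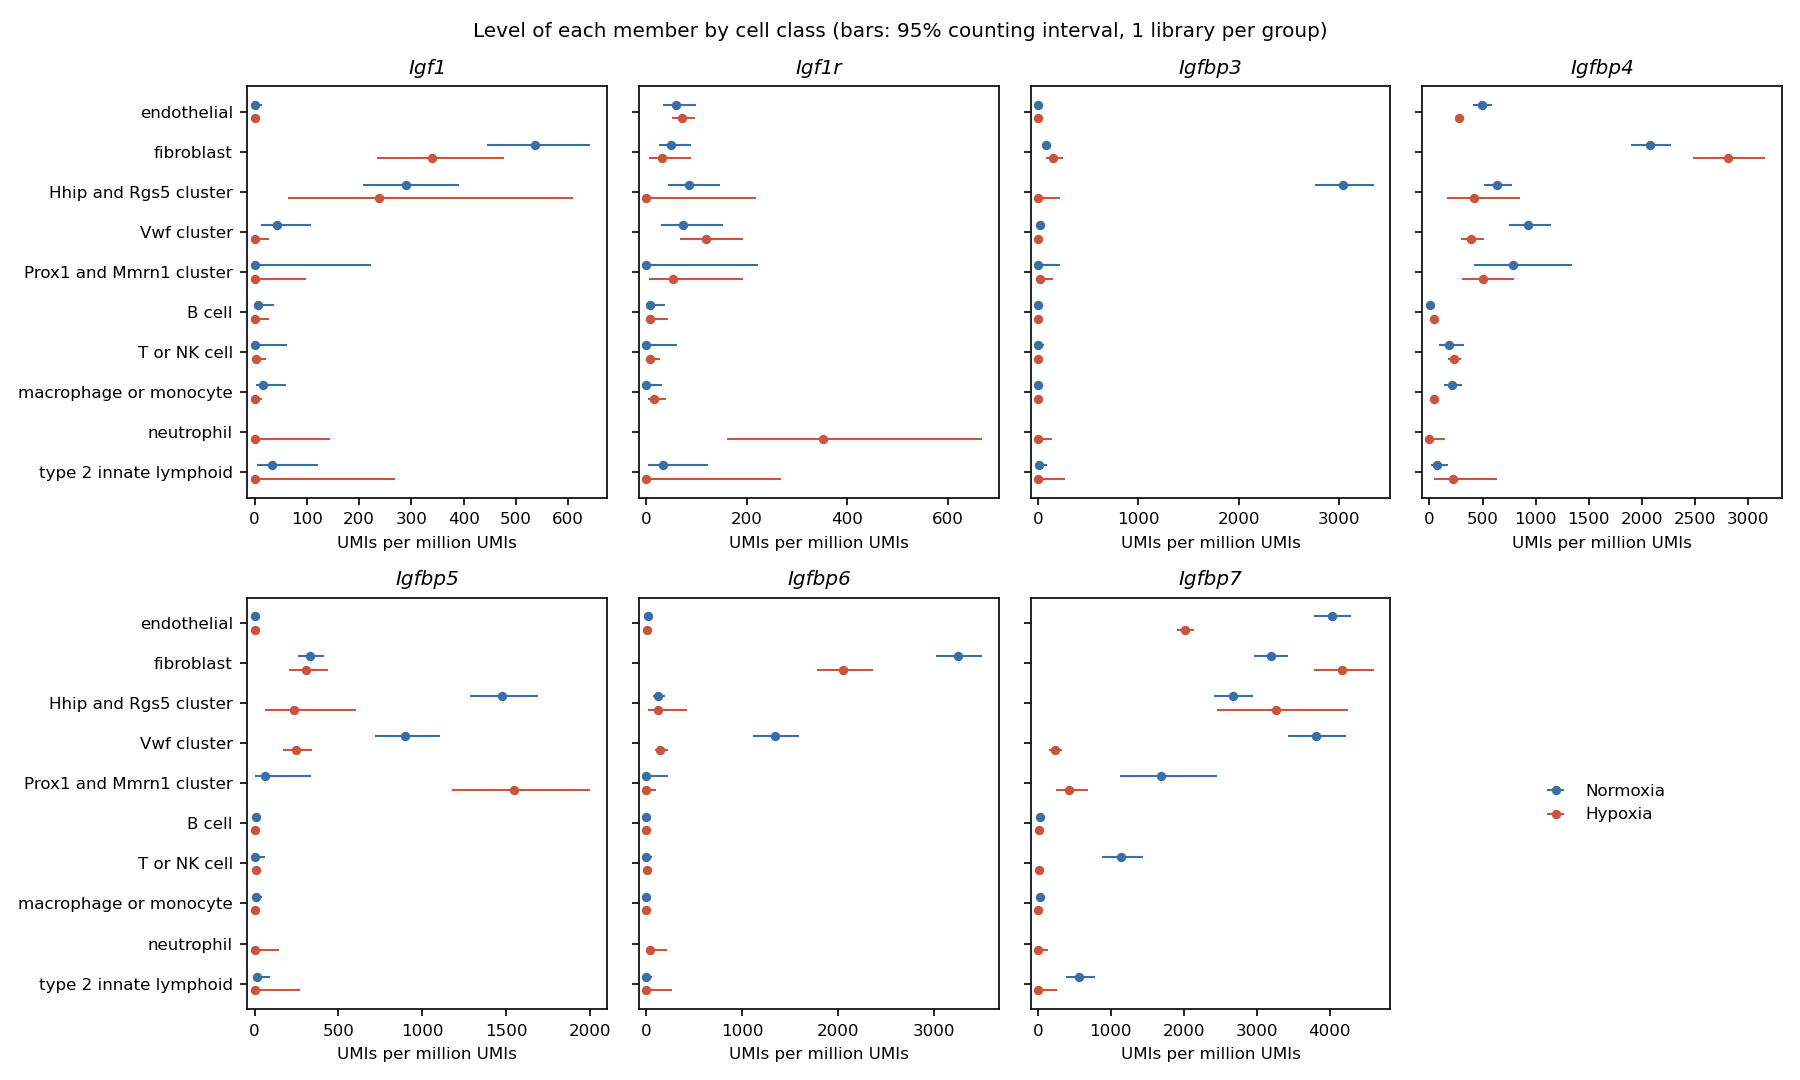
Level of 7 genes in each class or unnamed cluster in CPM (horizontal axes, each panel its own scale), Normoxia in blue and Hypoxia in red, with 95% counting intervals and 1 library per group. Igfbp3 stood at 3043 CPM in the Hhip and Rgs5 cluster of Normoxia, Igf1 and Igfbp6 were highest in fibroblast-like cells, and Igfbp7 was high in endothelial-like, fibroblast-like and Hhip and Rgs5 cells.

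Igfbp3, the main carrier of IGF1 in blood, was nearly restricted to the Hhip and Rgs5 cluster in Normoxia, where 36 of 45 cells held 432 of the 455 UMIs, 94.9%. The median there was 6 UMIs per cell and the highest cell had 41. None of the 6 Hypoxia cells of this cluster had a UMI. They held 16831 UMIs in all, so that the level of Igfbp3, 3043 CPM in Normoxia, was at least 17.1-fold lower against a floor of 3 counts per library. The exact interval of the log2 ratio ended at -3.79, a less strict bound. With 6 cells, 0 of 6 allows a share of cells with a UMI of up to 50%. Igfbp3 was itself among the 10 leading genes of the cluster, though it was not used to draw it.

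When the cells of this cluster were split by their own markers, 40 Normoxia and 4 Hypoxia cells had more myofibroblast than pericyte markers, and these held 431 and 0 Igfbp3 UMIs. The 4 and 2 cells with more pericyte markers held 1 and 0. Fibroblast-like cells had 19 and 15 Igfbp3 UMIs in 9 and 4 cells, with a log2 ratio of 0.85 and an interval of -0.23 to 1.90 that held 0. Among the cells with Pi16 or Dpt it was 1.15 (0.07 to 2.21). It turned to -1.88 (-2.75 to -1.11) when each cell took the class of its own markers, which moved 14 Normoxia cells of the Hhip and Rgs5 cluster with 126 Igfbp3 UMIs into the fibroblast class. Endothelial-like cells had 0 UMIs in both libraries, in 92 and 189 cells.

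In the Normoxia cells of the Hhip and Rgs5 cluster Igf1 and the binding proteins were found together about as often as their shares of cells. Of 28 cells with Igf1, 23 also had Igfbp3, 22 had Igfbp5, 7 had Igfbp6 and 28 had Igfbp7, where 36, 32, 9 and 44 of all 45 cells had these genes. In fibroblast-like cells of Normoxia 5 of 23 cells with Igf1 had Igfbp3 and all 23 had Igfbp6. No test was made of these counts.

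Igfbp5, which binds extracellular matrix as well as the growth factors, followed the same cluster in Normoxia, where 32 of 45 cells held 210 UMIs, 56.5% of the total. In Hypoxia 3 of 6 cells held 4 UMIs, and the level went from 1479 to 238 CPM. Its intervals did not overlap. Endothelial-like cells had 0 UMIs in both libraries, but the unnamed Vwf cluster, where 12 endothelial markers passed, had 85 and 33. All 85 lay in 5 cells with 3 or more fibroblast markers, and 24 of the 33 in 1 cell. In Hypoxia 45.7% of the Igfbp5 UMIs lay in the Mmrn1 and Prox1 cluster, where 5 lymphatic endothelial markers passed. There 4 of 6 Hypoxia cells had 58 UMIs, of which 30 lay in 1 cell, and 1 of 4 Normoxia cells had 1 UMI. In fibroblast-like cells 73 and 30 UMIs gave a log2 ratio of -0.09 (-0.76 to 0.54). Of the 30 Hypoxia UMIs 27 lay in 1 cell, and without the cell with most UMIs in each library the ratio was -2.86 (-5.19 to -1.24).

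Igfbp6, which prefers IGF2 to IGF1, was a gene of the fibroblast-like class, with 82.8% of its UMIs there in Normoxia and 87.3% in Hypoxia. It was found in 38 of 39 Normoxia and 14 of 21 Hypoxia cells. Its 722 and 200 UMIs stood for 3256 against 2056 CPM, with a log2 ratio of -0.66 (-0.90 to -0.44). Among those with a UMI of Pi16 or Dpt the ratio was -0.39 (-0.63 to -0.16). Endothelial-like cells had 5 and 3 UMIs, or 20.1 and 4.91 CPM, with overlapping intervals.

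Igfbp4, a binding protein that PAPPA cleaves, was the most widely detected member after Igfbp7 in Normoxia and the most widely detected in Hypoxia, with a UMI in 155 Normoxia and 159 Hypoxia cells. Its direction differed between classes. In fibroblast-like cells it had 461 and 273 UMIs, 2079 against 2806 CPM, and its log2 ratio of 0.43 (0.21 to 0.65) favoured Hypoxia. It was found there in 37 of 39 and 13 of 21 cells, a share that goes the other way from the level, and 59 of the 273 Hypoxia UMIs lay in 1 cell. With a mitochondrial maximum of 10% the ratio was 0.13 (-0.080 to 0.33) and its interval held 0.

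In endothelial-like cells Igfbp4 was lower in Hypoxia. It had 123 UMIs in 54 of 92 Normoxia cells and 169 UMIs in 88 of 189 Hypoxia cells, 494 against 277 CPM (log2 ratio -0.84, -1.18 to -0.49). The endothelial-like cluster led by Plvap gave -1.03 (-1.55 to -0.53) and the one led by Ntrk2 gave -0.91 (-1.49 to -0.29). The third, led by Car4, had 14 and 2 UMIs.

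T or NK cell-like cells had 11 and 61 Igfbp4 UMIs (log2 ratio 0.34, -0.60 to 1.41). After thinning 12 of 76 Hypoxia cells of this class had Igfbp4, 15.8%, against 1 of 53 B cell-like cells. Macrophage or monocyte-like cells had 25 and 12 UMIs (log2 ratio -2.19, -3.32 to -1.14), but different clusters made up this class in the 2 libraries. Its clusters led by Retnla, Ccl3 and Chil3 held 19, 9 and 0 Normoxia and 10, 20 and 15 Hypoxia cells, and in the Retnla cluster the ratio was -0.81 (-1.99 to 0.29).

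In the Vwf cluster Igfbp4 had 88 and 53 UMIs, with a log2 ratio of -1.24 (-1.76 to -0.73). Here 5 Normoxia cells and 0 Hypoxia cells had 3 or more fibroblast markers, and these 5 held 76 of the 88 UMIs. Without them the ratio was 1.13 (0.21 to 2.17). The same 5 cells held all 85 Igfbp5 and all 127 Igfbp6 UMIs of the Normoxia cells of this cluster, in which the 16 other Normoxia cells had none of either gene. The 23 Hypoxia cells had 33 Igfbp5 UMIs, 24 of them in 1 cell, and 20 Igfbp6 UMIs, 19 of them in 1 cell.

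**Figure D3:**
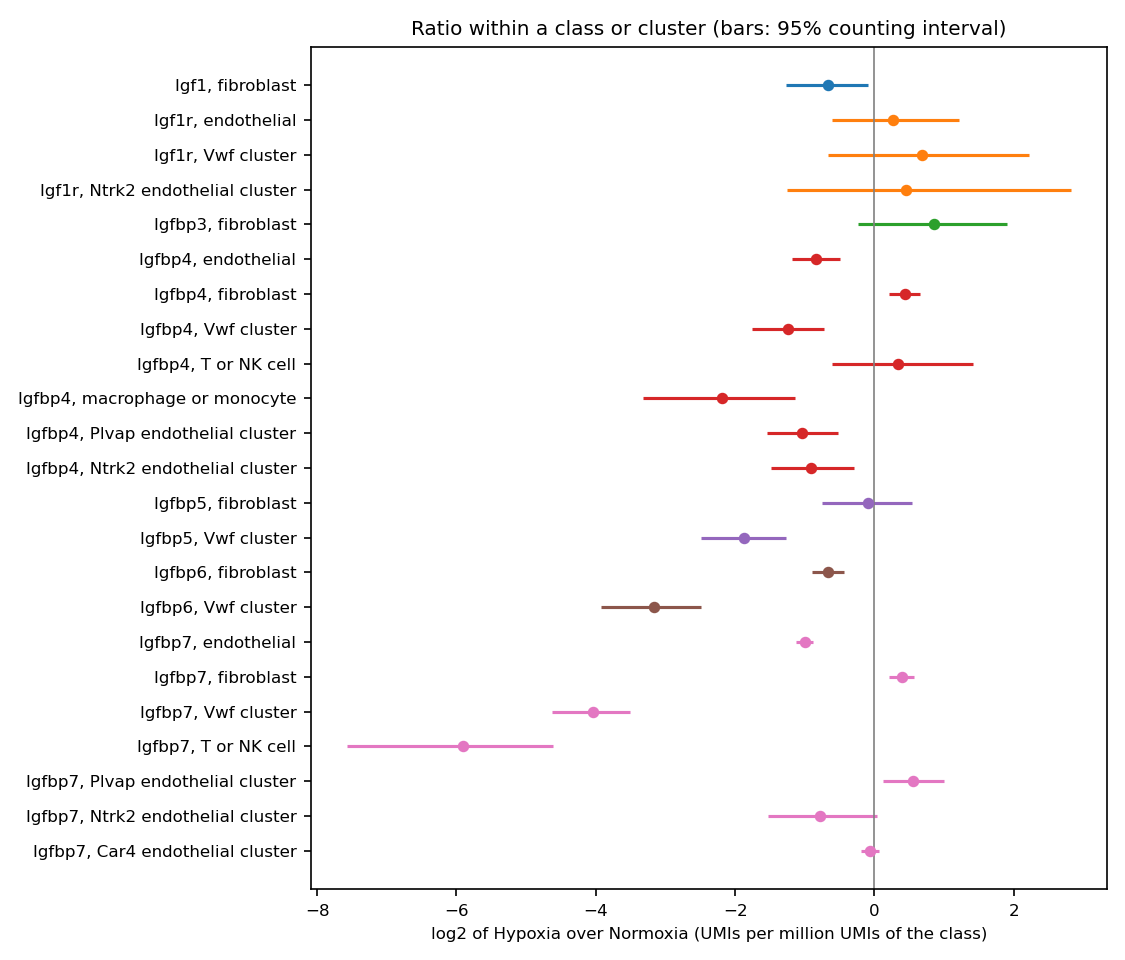
Log2 ratio of Hypoxia over Normoxia (horizontal axis) of each gene within a class or cluster with at least 10 cells in each library and 20 UMIs over both, with 95% counting intervals and 1 colour per gene. Igfbp4 and Igfbp7 lie above 0 in fibroblast-like cells and below 0 in endothelial-like cells, while Igfbp7 in the Car4 cluster lies at -0.07.

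Igfbp7 was highest in 1 endothelial-like cluster. In endothelial-like cells as a whole it had 1005 UMIs in Normoxia and 1233 in Hypoxia, 4032 against 2018 CPM, a log2 ratio of -0.999 (-1.12 to -0.88). The cluster led by Car4, Emp2, Ednrb and Apln, genes known from the large aerocytes of the alveolar capillaries, accounted for 91.6% of the Normoxia and 82.2% of the Hypoxia UMIs of that class. All of its 21 Normoxia and all of its 22 Hypoxia cells had Igfbp7, with medians of 35 and 48 UMIs per cell. The Hypoxia cells were also deeper, with medians of 2944 and 3974.5 UMIs in all.

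Relative to depth, Igfbp7 in the Car4 cluster stood at 11549 CPM in the Normoxia and 11012 CPM in the Hypoxia library (log2 ratio -0.07, -0.20 to 0.06). How the cluster was drawn mattered, since 5 other clusterings and a mitochondrial maximum of 10%, tried for it after the data had been seen, gave ratios from -0.41 to -0.20 with each interval below 0. The share of this cluster among endothelial-like cells was 22.8% in Normoxia and 11.6% in Hypoxia. That of the Ntrk2 cluster was 19.6% and 53.4%, and its cells had 19 and 70 Igfbp7 UMIs (log2 ratio -0.78, -1.53 to 0.03). Without the Ntrk2 cluster the ratio of the endothelial-like class was -0.25 (-0.37 to -0.12). In the Plvap cluster Igfbp7 had 65 and 149 UMIs (log2 ratio 0.55, 0.12 to 0.99), and 56 of the 149 lay in 1 cell.

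In fibroblast-like cells Igfbp7 was higher in Hypoxia, with 707 and 406 UMIs, 3188 against 4173 CPM and a log2 ratio of 0.39 (0.21 to 0.57). It was found in 37 of 39 and 19 of 21 cells, and 70 of the 406 Hypoxia UMIs lay in 1 cell. Fibroblast markers did not move alike over all retained cells, where Lum had 657 and 28 UMIs and Inmt 446 and 574. Lum also passed in the Hhip and Rgs5 cluster. Whether the make-up of the fibroblast-like class differed between the libraries was not tested. In the Hhip and Rgs5 cluster 44 of 45 and all 6 cells had Igfbp7, with 379 and 55 UMIs. The log2 ratio there was 0.29 (-0.14 to 0.70). The 6 Hypoxia cells in which Igfbp3 was not found thus had Igfbp7 at 3268 CPM, against 2670 CPM in Normoxia.

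Some Igfbp7 sums rested on few cells. In the Vwf cluster it had 361 and 31 UMIs (log2 ratio -4.05, -4.62 to -3.51), and 3 Normoxia cells held 265 of the 361. In T or NK cell-like cells it had 68 and 5 UMIs, 67 of them in 1 Normoxia cell that also had 3 or more endothelial or fibroblast markers, and without cells of that kind the log2 ratio was -0.31 (-3.47 to 5.26). In type 2 innate lymphoid cell-like cells 31 of 33 Normoxia UMIs lay in 1 cell.

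**Figure D4:**
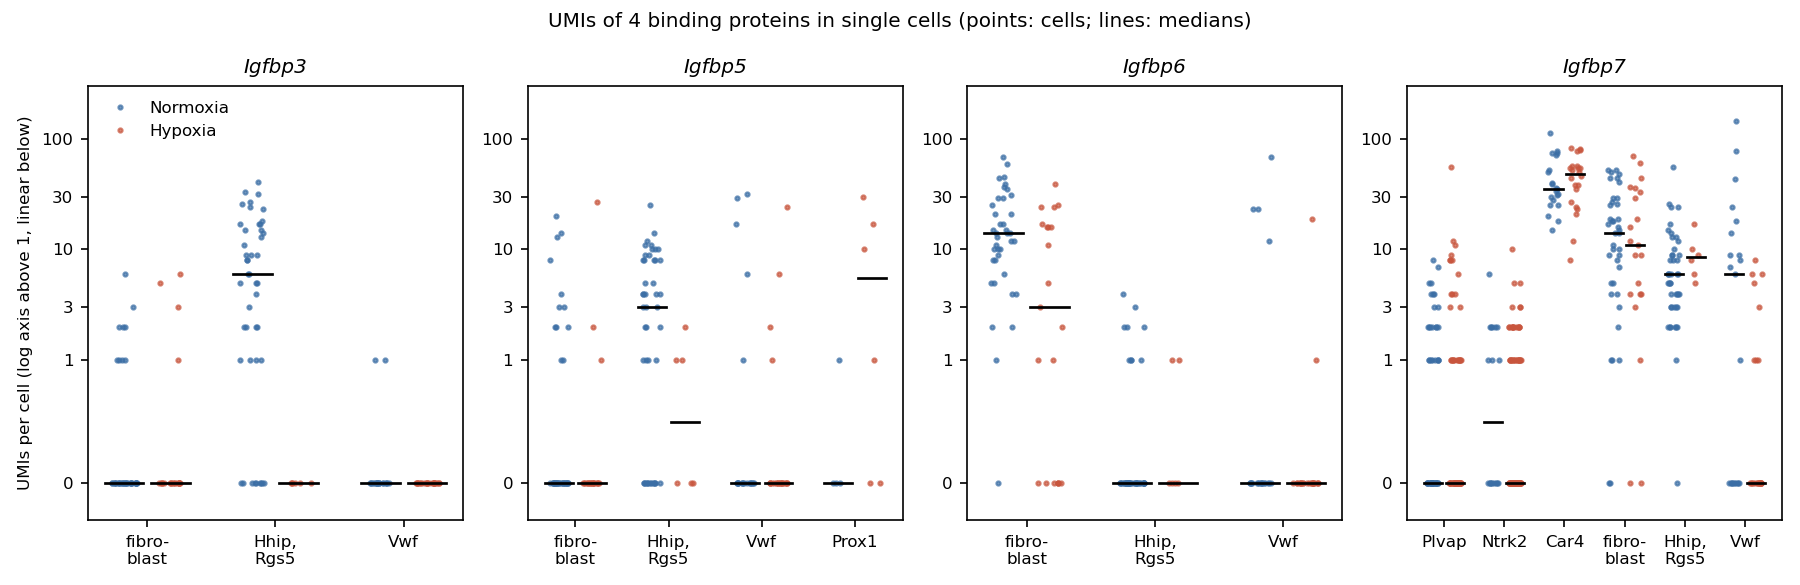
UMIs of Igfbp3, Igfbp5, Igfbp6 and Igfbp7 in single cells (points, vertical axis logarithmic above 1) by class or cluster, Normoxia in blue and Hypoxia in red, with lines at the medians. Igfbp3 reached 41 UMIs in the Hhip and Rgs5 cluster of Normoxia and 0 in its 6 Hypoxia cells, whereas the medians of Igfbp7 in the Car4 cluster were 35 and 48.

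Within endothelial-like cells 3 members had at least 20 UMIs, and 0 of them were lower or higher by log2 1 or more, with 4.62% and 5.33% of 5929 genes past that size in these directions. The intervals of Igfbp4 and Igfbp7 lay below 0, as did 8.08% of all intervals, and 6.11% of all lay above it. By cluster the Igfbp7 ratio was -0.07 (Car4), 0.55 (Plvap) and -0.78 (Ntrk2), and the intervals of the Car4 and Ntrk2 clusters held 0. The Car4 cluster, with most Igfbp7 UMIs of the class, made up 22.8% of its Normoxia and 11.6% of its Hypoxia cells. In the other clusterings tried the Car4 interval lay below 0. Within fibroblast-like cells 0 of 6 members passed log2 1 in either direction, with 11.2% of 2392 genes lower and 6.1% higher. There the intervals of Igf1 and Igfbp6 lay below 0 and those of Igfbp4 and Igfbp7 above, whereas 9.24% of all intervals lay below 0 and 6.98% above. The interval of Igf1 held 0 among the cells with Pi16 or Dpt, and that of Igfbp4 with the 10% mitochondrial maximum. Whether the fibroblast-like class had the same make-up in both libraries was not tested.

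Cells in which Cspg4 or Pdgfrb, both on the pericyte marker list, was found numbered 27 in Normoxia and 12 in Hypoxia. Most were chosen by Pdgfrb, found in 27 and 10 cells, against 1 and 2 for Cspg4. In the cells so chosen Igfbp3 had 79 and 0 UMIs and Igfbp5 had 72 and 1. Igfbp6, which lay mainly in fibroblast-like cells, had 291 and 76. Of the Igfbp3 UMIs 41 lay in 1 cell. Igfbp7 had 440 and 256 UMIs, with a log2 ratio of 0.11 (-0.11 to 0.34). These cells came from several classes, and the share of each class among them was not equalised.

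The other genes of the pathway were taken from a list of 54, of which 39 had at least 20 UMIs. Over all retained cells 14 of the 39 had an interval below 0 and 4 above, where 12.5% and 13.1% of all 9813 genes did, and their median log2 ratio was -0.25 against 0.04 over all genes. Of the other ligands Igf2 had 0 and 1 UMIs and Ins2 had none. Among receptors Insr, the insulin receptor, had 14 and 43 UMIs and was higher in Hypoxia (log2 ratio 1.10, 0.20 to 2.09). Igf2r, which takes up IGF2, had 20 and 19 UMIs and an interval that held 0. Igfbp1 and Igfals, the latter encoding the partner of IGFBP3 in blood, had 0 UMIs.

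Of 11 proteases and their inhibitors on the list 8 had at least 20 UMIs. Over all cells the intervals of 7 of these lay below 0 and that of 1 above, as did 12.5% and 13.1% over all genes. These pooled ratios join the level within a class and the share of the class. Fibroblast-like cells, 13.3% of Normoxia and 4.64% of Hypoxia cells, held 198 of the 209 Normoxia UMIs of Htra3 and 171 of the 190 of Mmp2. Htra1 had 228 and 34 UMIs (log2 ratio -3.26), Htra3 had 209 and 38 (-2.98) and the gelatinase gene Mmp2 had 190 and 50 (-2.44). Mmp14 (-1.47), the protease inhibitor gene Timp1 (-1.56) and the PAPPA inhibitors Stc1 (-1.84) and Stc2 (-1.62) were lower too. Of the 15 Normoxia UMIs of Stc2 10 lay in type 2 innate lymphoid cell-like cells, a class of 18 Normoxia and 5 Hypoxia cells. Pappa had 4 and 1 UMIs. The lysosomal protease gene Ctsd went the other way, with 357 and 1000 UMIs (log2 ratio 0.97, 0.79 to 1.15), and 554 of the Hypoxia UMIs lay in macrophage or monocyte-like cells.

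Among related secreted proteins Cyr61 had 202 and 34 UMIs (log2 ratio -3.09) and Kazald1 had 62 and 29 (-1.61). Among adaptors and signalling genes Irs2 (-1.39), Pik3r2 (-1.32), Akt2 (-0.92), Socs3 (-0.74) and Socs2 (-0.49) were lower, and Grb2 (0.43) and the phosphatase gene Ptpn1 (0.47) higher. The Hhip and Rgs5 cluster, with 45 Normoxia and 6 Hypoxia cells, held 77 of the 170 Normoxia UMIs of Socs3 and 40 of the 94 of Socs2. It also held 99 of the 202 of Cyr61, 37 of the 62 of Kazald1 and 10 of the 22 of Irs2. For Akt2 it held 8 of 45 and for Pik3r2 5 of 28. These pooled ratios join the level within a class and the share of the class. Gsk3b and Pik3r1 had the most UMIs of the signalling genes whose interval held 0.

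**Figure D5:**
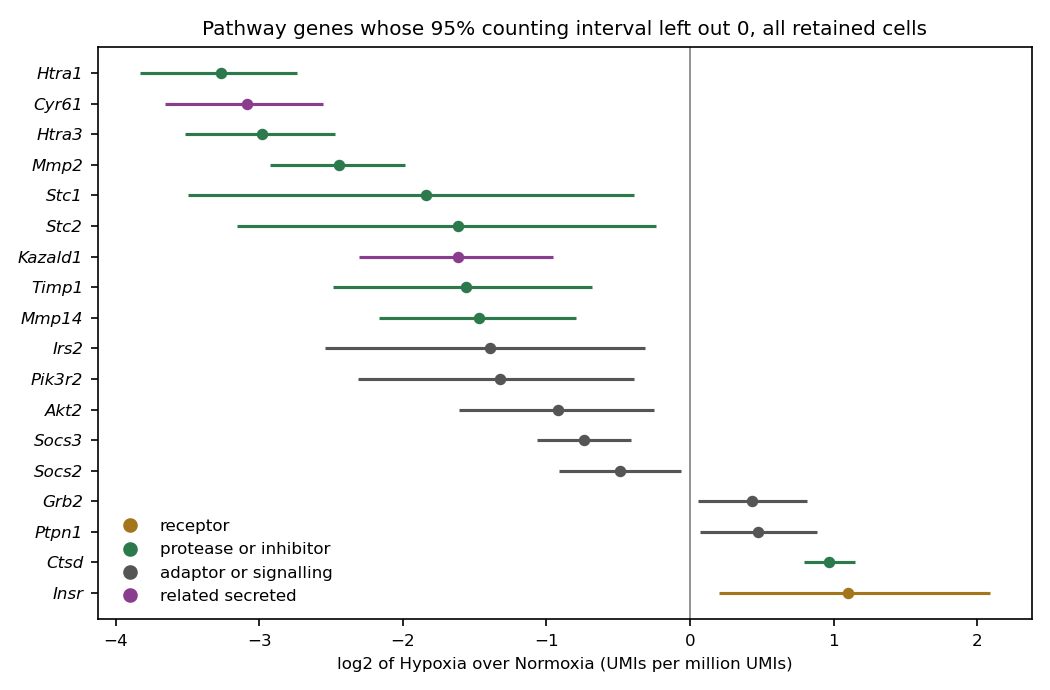
Log2 ratio of Hypoxia over Normoxia over all retained cells (horizontal axis) for the 18 pathway genes whose 95% counting interval (bars) left out 0, coloured by role. The 14 genes below 0 include 7 of the proteases and their inhibitors, and Ctsd at 0.97 and Insr at 1.10 are the highest. Over all genes 12.5% of intervals lay below 0 and 13.1% above.

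Within fibroblast-like cells 16 pathway genes had at least 20 UMIs. Htra1 had 166 and 22 UMIs there (log2 ratio -1.73, -2.44 to -1.08), Htra3 198 and 35 (-1.31, -1.87 to -0.79) and Mmp2 171 and 47 (-0.67, -1.17 to -0.20). The intervals of Mmp14 and Timp1 held 0 there. Cyr61 (77 and 3 UMIs) and Akt1 (20 and 2 UMIs) were lower as well. Ctgf, a matrix-associated protein with an IGF-binding-like domain, was higher, with 31 and 57 UMIs (log2 ratio 2.07, 1.41 to 2.75). The 5 lower genes and 1 higher gene were 31.2% and 6.25% of the 16, where 9.24% and 6.98% of all genes were. The other 10 intervals held 0. Within endothelial-like cells 21 genes had as many UMIs, and Socs3 (52 and 47 UMIs, log2 ratio -1.44) and Cyr61 (12 and 10 UMIs, -1.56) were lower and none was higher. These 2 were 9.52% of the 21, near the 8.08% of all genes.

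The genes whose level followed a member most closely over the 14 clusters, both libraries together, were found by Pearson's r of log2(CPM + 10). For Igf1 they were Spon2 (r = 0.98), Trabd2b and Vcan (both 0.96), and for Igfbp3 Ednra, P4ha3 and Agtr1a (all 0.97). For Igfbp6 they were C1s1, Col13a1 and Il33 (all 0.94). Gja1 (0.97), Ppl (0.97) and Neo1 (0.96) followed Igfbp5, and Hspb1 (0.95), Auts2 (0.95) and Pam (0.92) followed Igfbp7. For Igfbp4 they were Lrp6 and Zdhhc3 (both 0.90), and for Igf1r Chmp7 (0.90) and Dhrs7 (0.88). Between members r was highest for Igf1 and Igfbp3, at 0.84. Both lay mainly in the fibroblast-like class and the Hhip and Rgs5 cluster, so that r rested largely on these. Their order there was opposite in Normoxia, with 537 and 289 CPM for Igf1 and 85.7 and 3043 CPM for Igfbp3. The points share the 2 libraries and differ in depth, and with Spearman's rho 2 of the 3 genes were the same for Igfbp7, 1 for Igf1r and Igfbp6 and 0 for the others.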

How the data were processed

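Droplet-based single-cell RNA sequencing (Chromium Single Cell 3′) gave 1 Normoxia and 1 Hypoxia library. The values deposited by the authors are UMI counts for each gene in each barcode, without normalization, and the file header names Cell Ranger 3.1.0. The study's methods name STAR and mm10, and whole-lung suspensions depleted of CD45+ and CD326+ cells where the labels name a tdTomato sort. Following those methods, barcodes were kept with 200 to 6000 genes and no more than 5% mitochondrial UMIs, 293 of 373 (1112485 UMIs) and 453 of 613 (1592173 UMIs). Genes seen in under 3 cells did not enter the clustering. The cells were clustered jointly (scanpy 1.11.5, Python 3.11.15) on log values scaled to 10000 UMIs, from 2000 variable genes other than the members and the pathway list, with Leiden clustering at resolution 1.0 over 15 components and 15 neighbours. No doublets were taken out.

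A marker counted for a cluster when found in at least 25% of its cells at 2 or more times the median CPM over clusters. A name needed at least 3 markers and more than any other class, with no other class ahead among the 10 genes of highest fold. Clusters whose depth was under the median of the libraries divided by 3 also needed a marker among those genes. This naming rule was set after clusters had been seen. The members, gene lists and markers were chosen with earlier results of these data known. All members are described. Pathway genes are named when they had at least 20 UMIs and an interval without 0, with up to 3 others of many UMIs, and the genes most like a member are the 3 of highest r. Some genes that these rules name are not reported here. Of the pathway list, 3 genes were matched under older symbols (Cyr61, Ctgf, Nov).

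Sums had exact Poisson, ratios exact conditional binomial and shares exact Clopper-Pearson intervals at 95% (scipy 1.17.1), all for counting error alone, and 0 counts were read as allowing 3. No test was made with 1 library per group. The calculation was tested on simulated counts. Gene positions came from GENCODE M21 on GRCm38 and upstream sequences from RefSeq on GRCm38.p6, which matched all 8 members. Protein sequences were not used here. TMM factors came from edgeR 4.0.16 (R 4.3.3), as an alternative only. The other alternatives were different mitochondrial and gene maximums, doublet marking with Scrublet, a different total, cells weighted equally, different clusterings and thinning depths, and a higher UMI minimum. Subsets of cells by their markers, results without a cluster, a class or shared barcodes, and other class shares were tried only once the data had been seen.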

Additional observations from a re-analysis of the deposited data

Results flagged for a closer look

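The ratio of Igfbp4 between the libraries went in opposite directions in different classes. Its log2 ratio of Hypoxia over Normoxia was 0.43 in fibroblast-like cells, -0.84 in endothelial-like cells, -1.24 in the Vwf cluster and -2.19 in macrophage or monocyte-like cells. The value in the Vwf cluster was 1.13 without 5 Normoxia cells that had 3 or more fibroblast markers. Different clusters made up the macrophage or monocyte-like class in each library, and in its Retnla cluster the value was -0.81 (-1.99 to 0.29). In fibroblast-like cells it was 0.13 with a mitochondrial maximum of 10%, with an interval that held 0. The differences between the classes were not tested.

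Igfbp7 was likewise higher in Hypoxia in fibroblast-like cells, with a log2 ratio of 0.39, and lower in endothelial-like cells (-0.999), in the Vwf cluster (-4.05) and in T or NK cell-like cells (-5.90). The endothelial value was -0.25 without the Ntrk2 cluster and -0.07 in the Car4 cluster. In the Vwf cluster 3 Normoxia cells held 265 of 361 UMIs, and in T or NK cell-like cells 1 Normoxia cell held 67 of 68. In fibroblast-like cells 1 Hypoxia cell held 70 of 406. These differences were not tested either.

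The barcodes that the filters left out held UMIs of all 8 members. Only the interval of Igf1r lay above 0 there, and Igfbp2 was found in these barcodes alone. The intervals of Igfbp4, Igfbp5 and Igfbp6 lay below 0 there, as in the retained cells. Those of Igf1 (log2 ratio 0.09, -1.81 to 2.27), Igfbp3 (-1.50, -5.08 to 1.63) and Igfbp7 (0.21, -0.15 to 0.57) held 0 there. In the retained cells all 3 lay below 0. Igf1r had 23 UMIs in the 160 Hypoxia barcodes and 3 in the 80 Normoxia barcodes left out, a log2 ratio of 2.03 (0.30 to 4.41). Igfbp2, with 0 UMIs in the retained cells of both libraries, had 3 UMIs in the Hypoxia barcodes left out, all in 1 barcode, and 0 in Normoxia.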

How the results depend on the processing

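With 1 library per group the counting interval is the only measure of error. No paired analysis was possible because each group has 1 library. Of the pooled ratios under other settings, 65 moved by less than their interval and 12 by more, with no change of direction. With equal weight per cell, the log2 ratio was -6.83 for Igfbp3, -2.70 for Igfbp5 and -1.22 for Igfbp7, and a maximum of 4000 genes gave -2.38 for Igfbp5. Without the cell with most UMIs in each library Igf1 was at -3.33. Without the Hhip and Rgs5 cluster Igfbp3 was at -1.22 and Igfbp5 at -1.10. Without fibroblast-like cells the ratios were -3.81 for Igf1, -9.52 for Igfbp3, where 1 Hypoxia UMI was left, -2.37 for Igfbp5, -3.12 for Igfbp6 and -1.23 for Igfbp7. TMM scaling, the total without mitochondrial, ribosomal protein and haemoglobin genes, Scrublet, which marked 1 and 3 cells, and leaving out shared barcodes moved none of them past the interval.

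Within classes 102 values stayed inside the interval and 20 moved past it. Of these, 2 changed sign, Igfbp4 in the Vwf cluster without cells holding fibroblast markers, at 1.13, and Igfbp3 in fibroblast-like cells by the markers of each cell, at -1.88. Igfbp7 in endothelial-like cells was -1.33 with 30 principal components, -1.39 with each cell given the class of its markers and -0.25 without the Ntrk2 cluster. In the Car4 cluster it was -0.20 at resolution 0.6 and with members and list allowed among the variable genes, -0.39 at resolution 1.5 and with Cyr61, Ctgf and Nov allowed, -0.41 with 30 components and -0.31 with the 10% mitochondrial maximum. In fibroblast-like cells Igf1 was -1.44 and Igfbp5 -2.86 without the top cells, and Igfbp4 was 0.13 with the 10% maximum. Igfbp6 was -0.39 among cells with Pi16 or Dpt. Not all of the 20 values are named, and the cause of these moves was not tested. Among cells with Pi16 or Dpt Igf1, at -0.35, and Igfbp3, at 1.15, stayed inside the interval of the main value.

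At the class shares of Hypoxia the ratio was -1.99 for Igfbp3, -0.36 for Igfbp4, -0.53 for Igfbp5, -1.19 for Igfbp6 and -1.09 for Igfbp7. Igfbp7 was -0.43 at the shares of Normoxia and -0.27 with each cluster as a unit. With equal shares 2 members were lower by log2 1 or more instead of 5, with 4.61% of all genes, and which members depended on the shares. With at least 50 UMIs 1 endothelial pathway gene was lower instead of 2. The thinned share was lower in Hypoxia at 500, 1000 and 1500 UMIs for Igf1, Igfbp3, Igfbp4, Igfbp5, Igfbp6 and Igfbp7 and higher for Igf1r.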
